A study of Mus musculus with 8 samples.

Results

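Genes that store and move iron were followed through mouse livers with and without non-alcoholic steatohepatitis (NASH) and fibrosis. They were chosen by symbol: 9 genes among the 55450 genes of the single-cell count matrix. Slc40a1 (ferroportin, the iron exporter), Hamp (hepcidin, the hormone that removes ferroportin from the membrane) and Cp (ceruloplasmin, a ferroxidase) belong to export. Fth1 and Ftl1 encode the heavy and light chains of ferritin, the storage shell. Tfrc (transferrin receptor), Trf (transferrin, the iron carrier of plasma), Slc11a1 (NRAMP1, a phagosomal metal transporter) and Slc11a2 (DMT1, a membrane iron importer) belong to uptake and transport.

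All 8 mice were wild-type (WT) C57BL/6. The 2 control mice received a normal diet and drinking water. The 3 HFD+F+CCl4 mice received a high-fat diet with fructose solution, and the 3 WD+F+CCl4 mice a western diet with fructose solution, both with carbon tetrachloride (CCl4) injected into the peritoneum. No vehicle injection of the controls is named, so diet, fructose and CCl4 cannot be told apart, and the 6 model mice are called NASH mice below. Whole liver was dissociated with collagenase and papain, and red cells were lysed and dead cells removed. Hepatocyte-like and erythroid-like cells were 1025 and 374 of the cells kept, so neither stands for its share of the organ.

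The liver is the body's main iron store and the source of hepcidin and transferrin. Kupffer cells, the resident macrophages, break down old red cells and return their iron through ferroportin. Hepcidin closes that exit. When cytosolic iron is low, iron regulatory proteins bind a short RNA hairpin, the iron-responsive element. In the 5′ untranslated region (UTR) of a ferritin or ferroportin transcript this binding blocks translation, and in the 3′ UTR of the transferrin receptor transcript it protects the RNA from decay. RNA levels of these genes therefore need not follow their proteins.

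The hairpins are shown because they mark transcripts among the 9 genes that carry the letters of that switch. The transcripts of the GENCODE annotation (GRCm38) were searched on their own strand for a C, 5 bases, the loop CAGTGN and 5 bases that pair with those before the loop, with G-T pairs allowed. Capitals mark the 6 loop bases, and each hairpin lies within 1 exon. In the 5′ UTR the pattern was found in 3 of the 9 members and in 28 of 20561 genes (0.136%).
Fth1, chr19:9982732-9982761, plus strand: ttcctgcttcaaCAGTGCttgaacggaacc
Ftl1, chr7:45459778-45459807, minus strand: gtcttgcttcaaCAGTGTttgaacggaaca
Slc40a1, chr1:45925464-45925493, minus strand: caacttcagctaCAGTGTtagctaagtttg
In the 3′ UTR it was found in 1 member and in 127 of 20937 genes (0.607%). Tfrc carried 4 copies, all on the plus strand.
Tfrc, chr16:32631219-32631248: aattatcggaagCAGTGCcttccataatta
Tfrc, chr16:32631598-32631627: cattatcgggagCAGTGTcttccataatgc
Tfrc, chr16:32631663-32631692: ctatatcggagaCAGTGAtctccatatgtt
Tfrc, chr16:32631710-32631739: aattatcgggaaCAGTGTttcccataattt
The pattern was not found in the UTRs of Slc11a1, Slc11a2, Cp, Hamp and Trf. This says only that the loop with a fully paired stem is not there in the protein-coding transcripts of the basic annotation. Stems with a mismatch or a bulge were not searched for, so these genes are not shown to lack the element. The whole genes lie at chr1:45908068-45926523 (Slc40a1), chr19:9980598-9985098 (Fth1), chr7:45457944-45459884 (Ftl1), chr16:32608920-32632794 (Tfrc), chr1:74375195-74386062 (Slc11a1), chr15:100387898-100425072 (Slc11a2), chr3:19957054-20009145 (Cp), chr7:30942368-30944032 (Hamp) and chr9:103204001-103230444 (Trf).

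Levels are given as CPM, the UMIs of a gene for each 1000000 UMIs of all cells of one class in one mouse, and a mouse counts for a class only with at least 20 cells of it. UMIs are counts of tagged RNA molecules. Barcodes were kept above 500 genes and below 25% of UMIs from mitochondrial genes, which left 4168 to 11999 cells per mouse, 80474 in all. Library totals ran from 6135827 to 64855024 UMIs. Control replicate 2 was the shallowest, at a median of 992.5 UMIs per cell against 2397 to 4278 in the others, so its values rest on few counts. A total of 732 barcode sequences were kept in more than 1 library, at 8 to 46 for each pair of libraries. HFD+F+CCl4 replicate 1 stood apart: it held 2537 of the cells of the second macrophage-like cluster (cluster 10) and 2700 of the second patrolling monocyte-like cluster (cluster 8), where the next mouse held 205 and 472.

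Clusters were named from marker genes, which gave 21 named classes. Clusters 13, 14 and 27 mixed markers of several lineages and stayed unnamed. Cluster 13 held 1983 cells of control replicate 2 and cluster 14 held 1875 cells of control replicate 1. The same name covered different clusters in the groups: B-like cells of the controls lay mainly in cluster 11 and those of NASH mice in cluster 9, and classical monocyte-like cells lay in cluster 22 and cluster 4. The macrophage-like class of the controls was small (91 and 50 cells) and low in its own markers: the summed level of C1qa, C1qb, C1qc and Ms4a7 was 341 to 556 CPM against 3956 to 9498 CPM in NASH mice. The type 2 dendritic cell-like cluster also carried markers of type 1 dendritic cells.

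**Figure D1:**
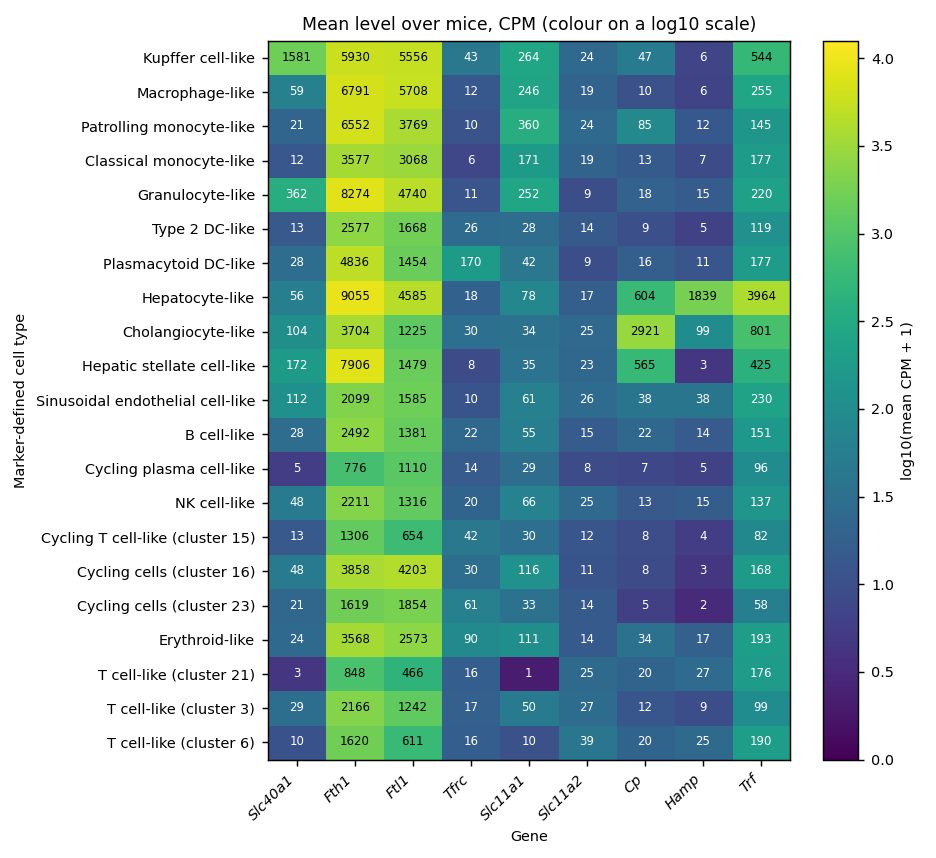
Mean CPM of the 9 genes (columns) in each marker-named class (rows), over mice with at least 20 cells of the class, with the mean printed in each cell and colour on a log10 scale. Slc40a1 peaked in Kupffer-like cells, Cp in cholangiocyte-like cells, and Hamp and Trf in hepatocyte-like cells, while both ferritin chains were present in every class.

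Ferroportin RNA had its highest level in Kupffer-like cells. Slc40a1 stood there at 2390, 1954 and 941 CPM in the 3 HFD+F+CCl4 mice and at 889 and 1729 CPM in WD+F+CCl4 replicates 2 and 3. These 5 mice held 408, 195, 34, 27 and 679 Kupffer-like cells. WD+F+CCl4 replicate 1 had 7 such cells, control replicate 1 had 6 and control replicate 2 had 0, so no control level is given. The 5 Kupffer-like levels lay above every mouse of every other named class.

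Granulocyte-like cells came next in the order of Slc40a1. The 5 Kupffer cell markers summed to 8.73 to 302 CPM in this class in NASH mice, with 3 to 5 of them detected, and to 38.9 CPM in control replicate 1. Slc40a1 was 548 CPM in control replicate 1, 465, 382 and 254 CPM in HFD+F+CCl4 mice and 259, 202 and 424 CPM in WD+F+CCl4 mice. These ranges stood apart from both neighbours in the order, Kupffer-like cells above and hepatic stellate-like cells below (192 and 151 CPM in 2 mice). For each Vsig4 UMI (a Kupffer cell receptor) the granulocyte-like cells of NASH mice held 52.1 Slc40a1 UMIs (13.04 to 362 over the 4 mice with at least 3 Vsig4 UMIs), against 1.14 in Kupffer-like cells (0.944 to 1.69). With each cell thinned to 1000 UMIs, 31.2% of granulocyte-like and 67.5% of Kupffer-like cells of NASH mice had a Slc40a1 UMI, against 1.31% of B-like cells. Without thinning these shares were 46.3%, 86.8% and 2.73%, at median depths of 1504, 5950.5 and 1703.5 UMIs.

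Below these, the ranges of Slc40a1 in neighbouring classes overlapped. Sinusoidal endothelial-like cells held 132 and 151 CPM in the controls, 206, 92.9 and 46.8 CPM in HFD+F+CCl4 mice, and 153 CPM in WD+F+CCl4 replicate 3. In WD+F+CCl4 replicate 2 the gene was at 0 UMIs in these cells. Cholangiocyte-like cells ranged from 52.9 to 167 CPM. Macrophage-like cells held 17.002 and 29.6 CPM in controls and 16.0 to 164 CPM in NASH mice, far below the Kupffer-like cells of the same livers.

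Over all kept cells the Slc40a1 level of the groups overlapped (2.14 ± 0.96, SE, on the log2 scale, adjusted p = 0.143, edgeR, NASH minus control). It was 21.9 and 38.3 CPM in the controls, 260, 124 and 40.4 CPM in HFD+F+CCl4 mice and 47.7, 27.1 and 233 CPM in WD+F+CCl4 mice. The 2 mice with most Kupffer-like cells were the 2 highest, and in bulk sums fewer cells of a type and less RNA per cell cannot be told apart. Kupffer-like cells gave between 3.43% (WD+F+CCl4 replicate 1) and 70.1% (WD+F+CCl4 replicate 3) of a NASH mouse's Slc40a1 UMIs, and granulocyte-like cells between 3.23% and 73.0%, in the reverse mice.

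Hepcidin RNA had its highest level in hepatocyte-like cells. There Hamp stood at 1009 CPM in control replicate 1, 765, 947 and 5364 CPM in HFD+F+CCl4 mice and 1148, 1248 and 2394 CPM in WD+F+CCl4 mice. HFD+F+CCl4 replicate 3, with 37 such cells, was far above the rest. The hepatocyte-like class stood apart from cholangiocyte-like cells, the next class, where Hamp ranged from 5.77 to 245 CPM. Control replicate 2 had 8 hepatocyte-like cells and gives no value, so no test against controls was possible here.

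Ceruloplasmin RNA had its highest level in cholangiocyte-like cells, those of the bile ducts. Cholangiocyte-like cells held 3040 and 3237 CPM of Cp in the controls, 3065, 2717 and 2459 CPM in HFD+F+CCl4 mice, and 2318 and 3611 CPM in WD+F+CCl4 replicates 2 and 3. The NASH mice lay on both sides of the controls, with a log2 difference of 0.04 ± 0.28 (SE, adjusted p = 1.00, edgeR) and a 95% interval of -0.50 to 0.59. Hepatocyte-like cells were next and stood apart, at 713 CPM in control replicate 1, 444, 662 and 978 CPM in HFD+F+CCl4 mice and 56.7, 123 and 1250 CPM in WD+F+CCl4 mice. Hepatic stellate-like cells held 581 and 550 CPM in the 2 mice with enough cells.

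Patrolling monocyte-like cells of NASH mice also carried Cp, at 97.2, 111 and 138 CPM in HFD+F+CCl4 mice and 73.5, 88.7 and 85.1 CPM in WD+F+CCl4 mice. Control replicate 1 had 0 Cp UMIs in this class. The ratio of Cp to Alb (albumin) UMIs in NASH mice was 0.432 in patrolling monocyte-like cells (0.176 to 5.21 over mice) against 0.0541 in hepatocyte-like cells, 0.895 in cholangiocyte-like cells and 2.22 in hepatic stellate-like cells. With 1 control mouse, this class had no test.

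The ferritin chains were high in every class. Fth1 was highest in hepatocyte-like cells, at 1915 CPM in control replicate 1, 6745, 8831 and 10682 CPM in HFD+F+CCl4 mice and 11308, 11959 and 11945 CPM in WD+F+CCl4 mice. All 6 NASH mice lay above the 1 control, without a test. The classes compared were unlike in hepatocyte RNA. The 6 hepatocyte markers named below summed to 38823 CPM in control replicate 1. They summed to 3782 and 5922 CPM in the WD+F+CCl4 mice with 11308 and 11959 CPM of Fth1. In the other NASH mice they summed to between 22418 and 31738 CPM. The part of hepatocyte RNA in the Fth1 difference was not tested. Granulocyte-like cells (5082 to 14489 CPM), hepatic stellate-like cells (2416 and 13395 CPM) and macrophage-like cells (3541 to 12984 CPM) followed, with ranges that overlapped from one class to the next.

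Ftl1 was highest in macrophage-like cells, at 2708 and 2415 CPM in the controls, 8010, 7751 and 5155 CPM in HFD+F+CCl4 mice and 7769, 5170 and 6687 CPM in WD+F+CCl4 mice. Kupffer-like cells were next (6234, 5462 and 5366 CPM, then 5105 and 5613 CPM), then granulocyte-like and hepatocyte-like cells, again with overlap. Macrophage-like cells made up a mean of 26.6% of the cells of a NASH mouse and gave 46.2% of its Fth1 UMIs and 53.3% of its Ftl1 UMIs. These cells were deeper than most, at medians of 5071 to 6516 UMIs per cell against 3159 to 4278 over all kept cells of NASH mice. Their share of all UMIs was therefore above their share of cells, and is the nearer measure for these percentages. In HFD+F+CCl4 mice they held 20661795 of 49161310, 19911397 of 51692445 and 15252289 of 53977712 UMIs. In WD+F+CCl4 mice they held 19944871 of 62381573, 15406835 of 45765722 and 19857989 of 63878061 UMIs. In the controls their share of Fth1 UMIs was 2.88% and 2.59%.

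**Figure D2:**
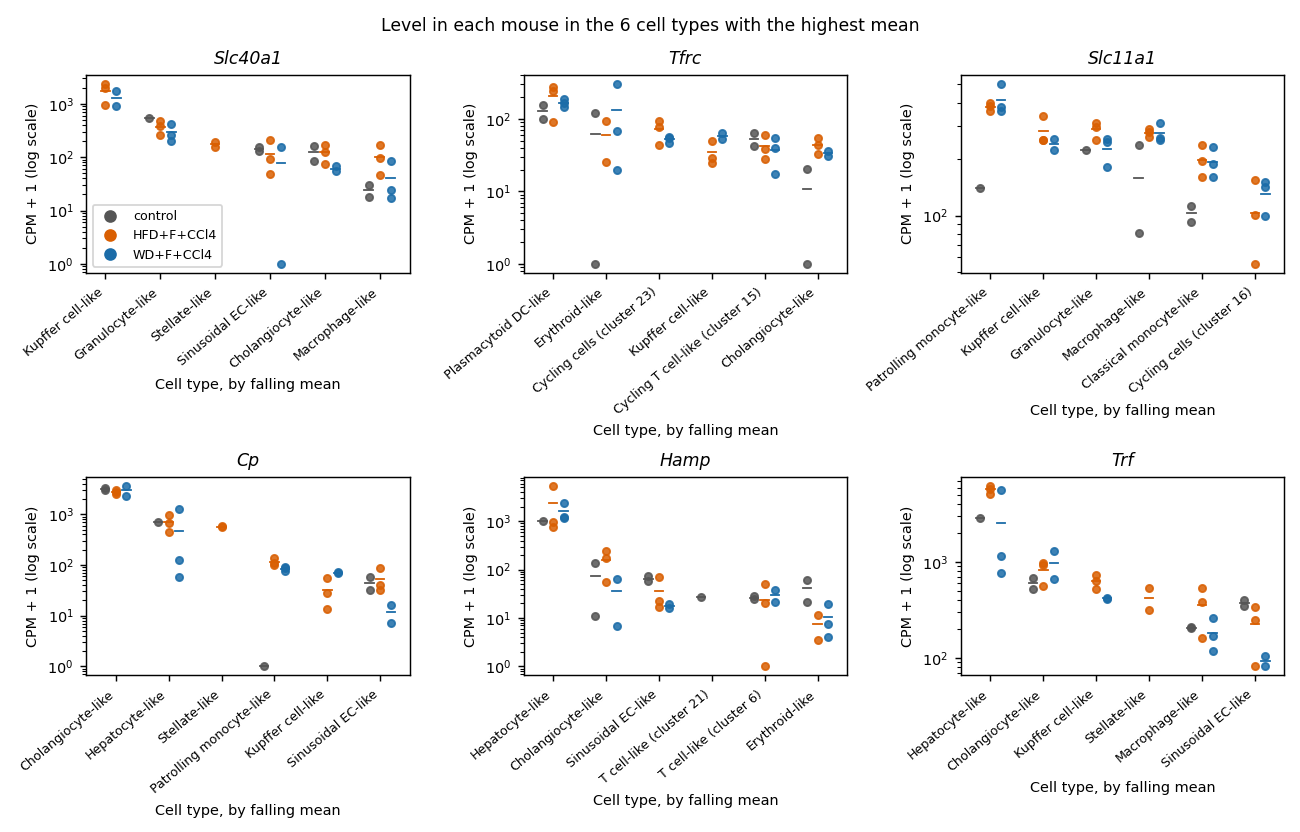
CPM + 1 on a log axis for Slc40a1, Tfrc, Slc11a1, Cp, Hamp and Trf, in the 6 classes with the highest mean of each, with a point for each mouse, a dash for the group mean and colour for the group. Kupffer-like cells stood above the other classes for Slc40a1, and cholangiocyte-like cells for Cp, while the ranges of neighbouring classes overlapped for Tfrc.

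Transferrin receptor RNA, the uptake gate for plasma iron, was low and had its highest mean in plasmacytoid dendritic cell-like cells. Tfrc stood there at 154 and 98.6 CPM in the controls, 89.3, 278 and 243 CPM in HFD+F+CCl4 mice and 146, 164 and 188 CPM in WD+F+CCl4 mice, with overlapping groups. Erythroid-like cells, whose haem synthesis needs iron, ranged from 0 to 306 CPM, on 0 to 74 UMIs a mouse. That order could not be resolved, since the ranges of these 2 classes and of the cycling cells of cluster 23 (42.8 to 93.5 CPM) overlapped.

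Transferrin RNA was highest in hepatocyte-like cells. Trf held 2914 CPM in control replicate 1, 5154, 5798 and 6227 CPM in HFD+F+CCl4 mice and 774, 1169 and 5715 CPM in WD+F+CCl4 mice. The 2 low mice, WD+F+CCl4 replicates 1 and 2, were also the lowest for Cp in this class. The summed level of 6 hepatocyte markers there was 3782 and 5922 CPM, against 22418 to 31738 CPM in the other NASH mice and 38823 CPM in control replicate 1, so these 2 mice held a class poorer in hepatocyte RNA. Its part in the low Trf and Cp was not tested.

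Macrophage-like and Kupffer-like cells also carried Trf. Macrophage-like cells held 204 and 207 CPM in controls, 540, 380 and 159 CPM in HFD+F+CCl4 mice and 118, 169 and 261 CPM in WD+F+CCl4 mice. The control level is not particular to them, since B-like cells of controls held 1892 Trf UMIs on totals of 6687961 and 433000. The ratio of Trf to Alb UMIs in controls was 0.422 in macrophage-like and 0.219 in B-like cells. In NASH mice the ratio of Trf to Alb UMIs was 2.40 in macrophage-like cells (1.34 to 12.8 over mice) and 4.14 in Kupffer-like cells, against 0.405 in hepatocyte-like cells (0.333 to 0.784). Macrophage-like cells gave 38.7% of the Trf UMIs of a NASH mouse on average. Their UMIs beside all UMIs of each mouse are given with the ferritin chains above, so the 38.7% is not read as an excess. Cholangiocyte-like cells (518 to 1295 CPM) stood second in the order.

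The phagosomal transporter Slc11a1 was a gene of the mononuclear phagocytes and granulocytes. Patrolling monocyte-like cells held 139 CPM in control replicate 1, 360, 382 and 395 CPM in HFD+F+CCl4 mice and 377, 505 and 360 CPM in WD+F+CCl4 mice. Kupffer-like (222 to 340 CPM), granulocyte-like (181 to 312 CPM) and macrophage-like cells followed, and the ranges of neighbours overlapped. The membrane importer Slc11a2 was low everywhere. Its highest class mean was 39.4 CPM in the T-like cells of cluster 6, from 12.4 to 75.4 CPM, and its level overlapped between neighbouring classes.

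To ask which of these levels differed between NASH and control mice, counts were summed per mouse and class and compared with edgeR's quasi-likelihood test, adjusted by Benjamini-Hochberg over all genes tested in a class. An adjusted p below 0.05 is called a change. The mice are separate animals, 2 against 6, and differences are log2 differences of NASH minus control. In 13 classes with at least 2 mice on each side, 26 of 99 gene and class pairs changed, 20 higher and 6 lower. The background was 5.47% of 119847 pairs over all genes, at 2.76% higher and 2.71% lower. The median log2 difference of the 99 pairs was 0.54.

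Without control replicate 1, which holds most control cells, 7 of 100 pairs changed, and without control replicate 2, 14 of 128. With HFD+F+CCl4 mice alone as the NASH group 14 pairs changed, and with WD+F+CCl4 mice alone 26. Over all genes, HFD+F+CCl4 mice alone also gave fewer changes than both models in every class tested. In B-like cells this was 597 against 1140 of 9723 genes. With WD+F+CCl4 mice alone the count was 1228 there, and it was higher in some classes and lower in others. The fewer pairs with HFD+F+CCl4 mice alone are therefore not read as a trait of the members. The share over all genes is not given for the settings without a control. None of the 26 changed pairs turned its direction in any of these 4 settings.

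**Figure D3:**
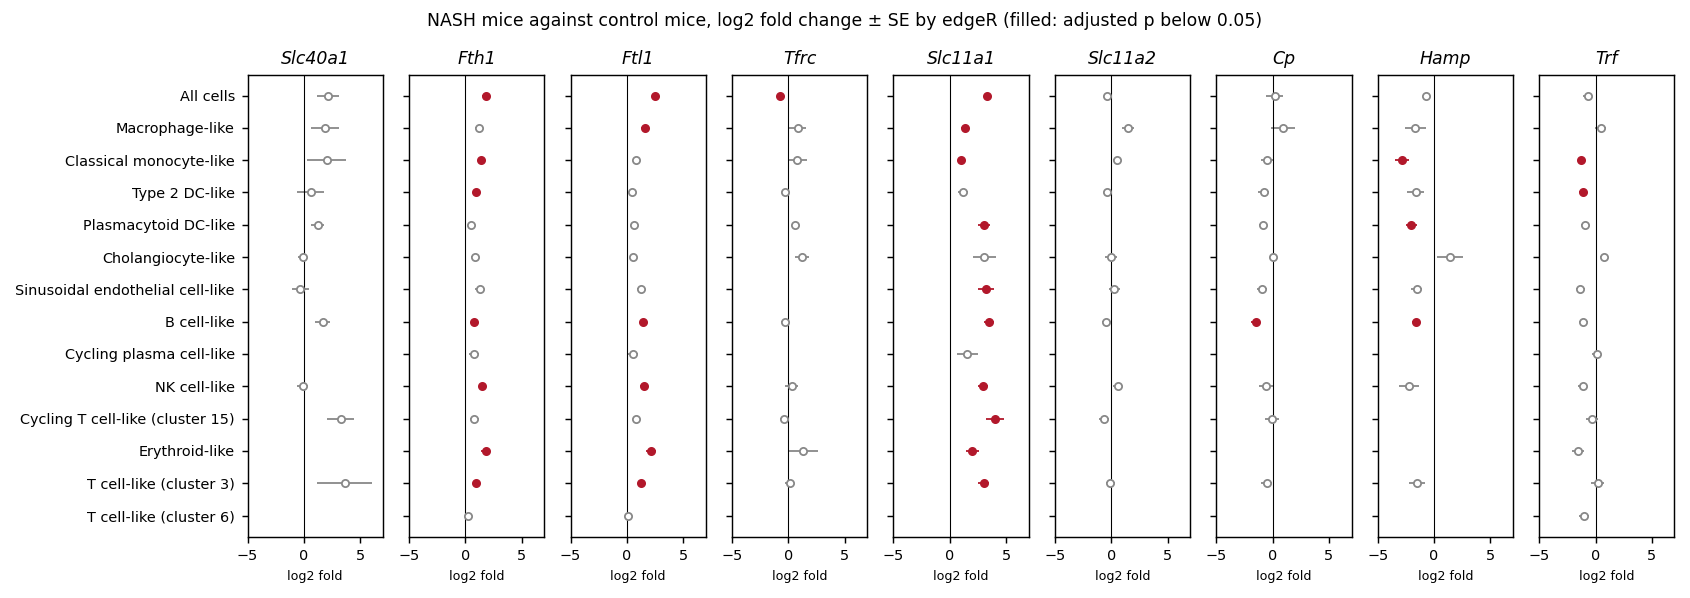
Log2 differences of NASH minus control with their SE by edgeR for the 9 genes (panels) in each class tested and in all cells (rows), with filled points for an adjusted p below 0.05. Fth1, Ftl1 and Slc11a1 lay above 0 in every class tested, and Hamp and Trf mostly below.

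Both ferritin chains were higher in NASH mice. Fth1 rose in 6 of 13 classes and Ftl1 in 5 of 13, and the difference was above 0 in all 13 for each, with medians of 0.97 and 0.80. DESeq2 called 9 and 8. The share over all genes by DESeq2 is not given, so its counts here and below stand without a background. In NK-like cells Fth1 was 1008 and 1121 CPM in the controls, 2090, 2698 and 3188 CPM in HFD+F+CCl4 mice and 2679, 2848 and 2055 CPM in WD+F+CCl4 mice. All 6 NASH mice lay above both controls, a log2 difference of 1.47 ± 0.28 (SE, adjusted p = 0.00281, edgeR). Ftl1 in the same cells went from 645 and 530 CPM to between 1126 and 2119 CPM, a log2 difference of 1.48 ± 0.30 (adjusted p = 0.00396, edgeR).

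B-like cells rose in both chains. Ftl1 was 649 and 594 CPM in the controls, 1825, 1589 and 1789 CPM in HFD+F+CCl4 mice and 1904, 1242 and 1457 CPM in WD+F+CCl4 mice, a log2 difference of 1.48 ± 0.21 (adjusted p = 0.000164, edgeR). Fth1 was 1763 and 1674 CPM against 2169 to 3777 CPM, a log2 difference of 0.75 ± 0.20 (adjusted p = 0.0238, edgeR). Neither range overlapped.

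Classical monocyte-like cells rose in Fth1. It was 1768 and 1585 CPM in the controls, 4027, 3986 and 5982 CPM in HFD+F+CCl4 mice and 3579, 3706 and 3980 CPM in WD+F+CCl4 mice, a log2 difference of 1.36 ± 0.25 (adjusted p = 0.00874, edgeR). Ftl1 there was 2324 and 1668 CPM against 2943 to 4050 CPM and did not pass the test. Type 2 dendritic cell-like cells rose in Fth1 from 1606 and 1419 CPM to between 2123 and 3442 CPM (0.98 ± 0.23, adjusted p = 0.0271, edgeR). Their Ftl1 was 1508 and 1161 CPM against 1445 to 2034 CPM and did not pass the test.

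In erythroid-like cells both chains rose, Fth1 from 1135 and 1409 CPM to between 3483 and 7095 CPM (1.79 ± 0.40, adjusted p = 0.0179, edgeR) and Ftl1 from 722 and 690 CPM to between 2101 and 4018 CPM (2.16 ± 0.42, adjusted p = 0.00844, edgeR). T-like cells of cluster 3, which carried Foxp3 and Ctla4 among their leading genes, rose in Ftl1 from 681 and 631 CPM to between 1104 and 1833 CPM (1.28 ± 0.24, adjusted p = 0.0211, edgeR). Their Fth1 went from 1219 and 1620 CPM to between 1913 and 3066 CPM (0.97 ± 0.22, adjusted p = 0.0453, edgeR), a call lost in 11 of 19 other settings.

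In macrophage-like cells Ftl1 rose with the values given above (1.60 ± 0.30, adjusted p = 0.0222, edgeR). Fth1 was 4246 and 3541 CPM in the controls and 5341 to 12984 CPM in NASH mice, with no overlap, and missed the threshold (1.17, adjusted p = 0.0924, edgeR). The median of all genes in this class was 0.31, which leaves 1.28 for Ftl1 above that median. The 5 classical monocyte markers summed to 7700 and 7779 CPM in the macrophage-like cells of the controls and to 1040 to 6397 CPM in those of NASH mice, against 8579 and 9642 CPM in the classical monocyte-like cells of the controls. The part of monocyte RNA in the rise was not tested.

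The ratio of the 2 chains within a library does not depend on scaling, and it was compared between groups by an exact two-sided permutation test over mice. Over all cells the mean log2 ratio of Fth1 to Ftl1 UMIs was 1.05 in controls and 0.37 ± 0.44 (SD, n = 6) in NASH mice (exact permutation p = 0.107). In B-like cells all 6 NASH mice lay below both controls, a difference of -0.73 (exact permutation p = 0.0357, the smallest that 2 against 6 mice allow, adjusted p = 0.429). In classical monocyte-like cells the difference was 0.52, in the other direction (exact permutation p = 0.179, adjusted p = 0.714). None of the 12 classes tested passed the correction. With so few mice, a class alone at the smallest possible p could not pass it, so this outcome does not show that the ratios were alike. HFD+F+CCl4 replicate 3 had the highest ratio in 9 of 15 classes and the highest Fth1 level in 12 of 15.

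**Figure D4:**
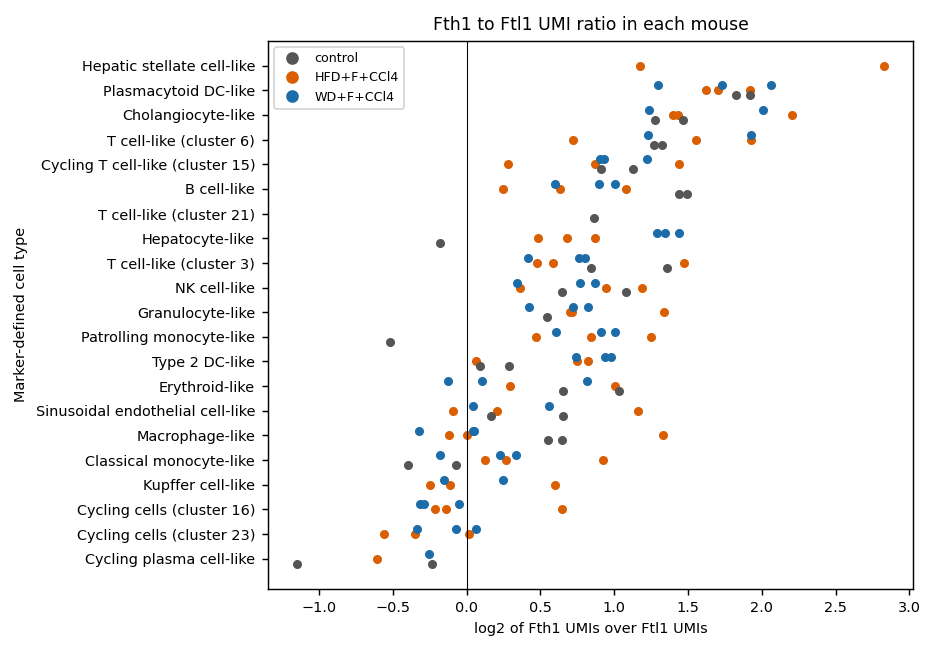
Log2 ratio of Fth1 to Ftl1 UMIs in each class (rows), with a point for each mouse, coloured by group. All NASH mice lay below both controls in B-like cells, and 5 of 6 lay above both in classical monocyte-like cells.

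Slc11a1 gave the most changes, higher in 9 of 12 classes tested and above 0 in all 12, with a median log2 difference of 2.97. These are RNA levels, and whether these mice made a working transporter was not measured. DESeq2 called 8. B-like cells held 4.04 and 18.5 CPM in the controls, 69.5, 41.9 and 91.7 CPM in HFD+F+CCl4 mice and 71.8, 85.9 and 57.3 CPM in WD+F+CCl4 mice, with no overlap (3.52 ± 0.43, adjusted p = 4.69e-05, edgeR). Those control values rest on 27 and 8 UMIs. NK-like cells went from 9.55 and 31.1 CPM to between 50.6 and 101 CPM (2.93 ± 0.44, adjusted p = 0.000433, edgeR).

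Slc11a1 also rose in 4 further lymphoid, plasmacytoid and endothelial classes. T-like cells of cluster 3 went from 9.24 and 0 CPM to between 51.8 and 89.6 CPM (3.03 ± 0.49, adjusted p = 0.0124, edgeR), and the cycling T-like cells of cluster 15 from 1.60 and 5.11 CPM to between 13.5 and 65.1 CPM (3.99 ± 0.81, adjusted p = 0.0163, edgeR). Plasmacytoid dendritic cell-like cells went from 3.87 and 17.3 CPM to between 14.9 and 87.2 CPM, with HFD+F+CCl4 replicate 1 inside the control range on 1 UMI (3.01 ± 0.52, adjusted p = 0.00173, edgeR). Sinusoidal endothelial-like cells went from 5.96 and 15.9 CPM to between 43.2 and 155 CPM (3.26 ± 0.71, adjusted p = 0.0425, edgeR), a call lost in 10 of 20 other settings.

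The phagocyte classes, where the level of Slc11a1 is high, had smaller fold differences, which were not tested against those of the other classes. Classical monocyte-like cells held 92.0 and 112 CPM in the controls, 235, 159 and 194 CPM in HFD+F+CCl4 mice and 159, 232 and 187 CPM in WD+F+CCl4 mice (0.99 ± 0.22, adjusted p = 0.0201, edgeR). Macrophage-like cells held 80.2 and 237 CPM in the controls and 253 to 311 CPM in NASH mice (1.34 ± 0.31, adjusted p = 0.0430, edgeR), a call lost in 10 of 19 other settings, and control replicate 2 lay just under the NASH range. Erythroid-like cells went from 20.6 and 60.0 CPM, on 2 UMIs in each control, to between 103 and 153 CPM (2.02 ± 0.58, adjusted p = 0.0473, edgeR), a call lost in 9 of 18 other settings.

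Macrophage RNA moved with these rises in classes that are not macrophages. The 4 macrophage markers named above summed to 11.6 to 16.6 CPM in B-like cells of controls and 168 to 2242 CPM in those of NASH mice. The same sums were 31.1 to 47.8 against 361 to 1731 CPM in NK-like cells, 0 to 19.8 against 541 to 1968 CPM in T-like cells of cluster 3, and 15.9 to 35.7 against 459 to 2042 CPM in sinusoidal endothelial-like cells. Groups did not overlap in any of these classes, and all 4 markers were detected in every NASH mouse there except in B-like cells, where 3 or 4 were. In erythroid-like cells they were at 0 in both controls and summed to 726 to 4533 CPM in NASH mice. The sums were 23.2 to 76.6 against 196 to 939 CPM in classical monocyte-like cells, and 19.4 to 42.5 against 283 to 754 CPM in type 2 dendritic cell-like cells. For each Lyz2 UMI (lysozyme, a phagocyte product), macrophage-like cells of NASH mice held 0.0264 Slc11a1 UMIs, B-like cells 0.0268, T-like cells of cluster 3 held 0.0312, cycling T-like cells of cluster 15 held 0.0362 and NK-like cells 0.0372. For Fth1 the same ratio was 0.740 in macrophage-like, 1.07 in B-like and 1.15 in T-like cells of cluster 3. The part of macrophage RNA in the rises of Slc11a1, Fth1 and Ftl1 was not tested.

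**Figure D5:**
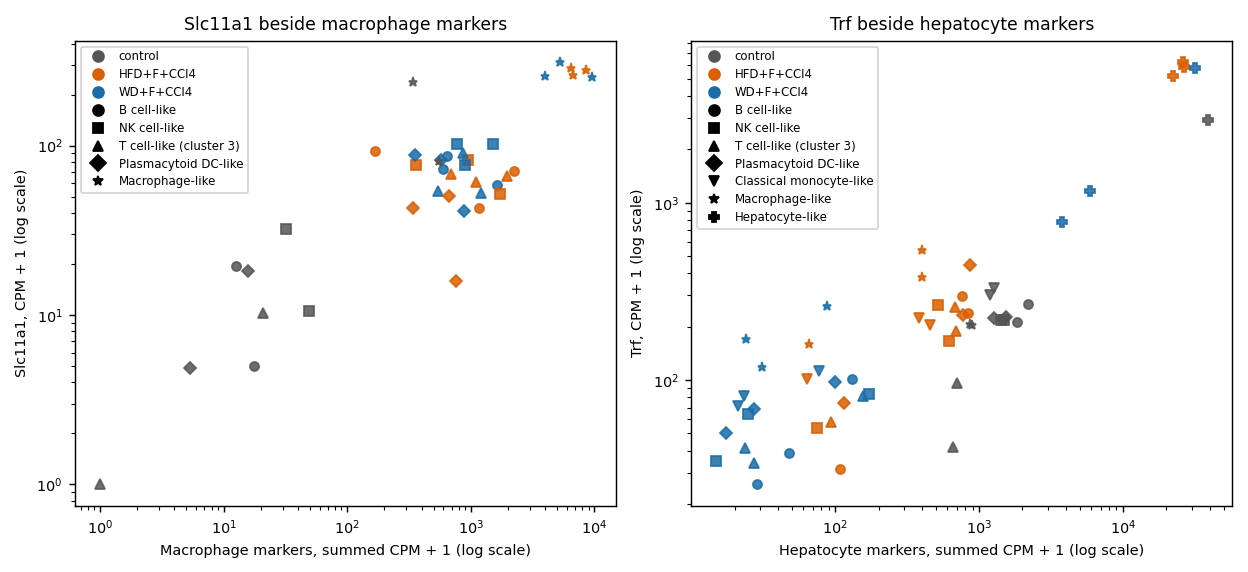
Left, Slc11a1 against the sum of 4 macrophage markers, and right, Trf against the sum of 6 hepatocyte markers, as CPM + 1 on log axes, with a point for each mouse and class, colour for the group and shape for the class. Lymphoid-like cells of NASH mice lay to the right of and mostly above those of the controls on the left, and Trf was high in hepatocyte-like cells rich in hepatocyte markers on the right.

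Hepcidin, transferrin and ceruloplasmin RNA had lower levels in NASH mice in several classes other than hepatocyte-like cells. Hamp fell in 3 of 9 classes tested and was below 0 in 8, with a median log2 difference of -1.63. DESeq2 called 1. In B-like cells it was 33.8 and 30.02 CPM in the controls, 9.47, 14.3 and 0 CPM in HFD+F+CCl4 mice and 9.81, 4.43 and 10.4 CPM in WD+F+CCl4 mice (-1.59 ± 0.34, adjusted p = 0.00510, edgeR). In classical monocyte-like cells it was 22.5 and 17.7 CPM against 0.441 to 6.14 CPM (-2.86 ± 0.64, adjusted p = 0.0199, edgeR). In plasmacytoid dendritic cell-like cells it was 24.7 and 17.3 CPM against 1.09 to 20.1 CPM, with overlap (-2.03 ± 0.51, adjusted p = 0.0221, edgeR).

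Trf fell in 2 of 13 classes, classical monocyte-like cells (299 and 330 CPM against 70.8 to 222 CPM, -1.31 ± 0.26, adjusted p = 0.0114, edgeR) and type 2 dendritic cell-like cells (214 and 177 CPM against 48.3 to 158 CPM, -1.15 ± 0.31, adjusted p = 0.0447, edgeR). The call in type 2 dendritic cell-like cells was lost in 9 of 20 other settings. Cp fell in 1 of 10 classes, B-like cells, from 41.4 and 43.9 CPM to between 4.49 and 25.3 CPM (-1.50 ± 0.38, adjusted p = 0.0166, edgeR). DESeq2 called Trf in the same number of classes, 2, and Cp in 0.

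Hepatocyte RNA moved with these falls. The 6 hepatocyte markers, Alb, Apoa1, Ttr, Serpina1c, Cyp2e1 and Fgb, summed to 1824 to 2188 CPM in B-like cells of controls and 27.4 to 832 CPM in those of NASH mice. The sums were 1191 to 1261 against 20.01 to 454 CPM in classical monocyte-like cells, and 770 to 892 against 20.01 to 388 CPM in type 2 dendritic cell-like cells. Groups did not overlap, and all 6 markers were detected in both controls. For each Alb UMI, controls held 0.0277 Hamp UMIs in B-like cells, 0.0327 in classical monocyte-like cells and 0.0269 in plasmacytoid dendritic cell-like cells, and 0.0511 in hepatocyte-like cells. For Trf the same ratio was 0.449 in classical monocyte-like, 0.487 in type 2 dendritic cell-like, 0.219 in B-like and 0.148 in hepatocyte-like cells. With each cell thinned to 1000 UMIs, 3.53% of the B-like cells of controls had a Hamp UMI, against 38.5% of their hepatocyte-like cells. The part of hepatocyte RNA in the falls of Hamp, Trf and Cp was not tested.

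Slc40a1, Tfrc and Slc11a2 changed in no class by edgeR's quasi-likelihood test or by DESeq2. At an unadjusted p below 0.05, Slc40a1 was higher in 2 of 10 classes, Tfrc in 1 of 10 and Slc11a2 in 1 of 9. Over all genes 18.9% of 119847 pairs passed that limit, so these counts are not read as rises. Slc40a1 differed most in size in T-like cells of cluster 3 (3.61 ± 2.44, adjusted p = 0.506, edgeR), where the NASH mice spread from 5.57 to 123 CPM and HFD+F+CCl4 replicate 1, with 408 Kupffer-like cells, was the highest. Tfrc in plasmacytoid dendritic cell-like cells, its highest class, differed by 0.57 ± 0.25 (adjusted p = 0.229, edgeR). Kupffer-like, hepatocyte-like, granulocyte-like, patrolling monocyte-like and hepatic stellate-like cells had fewer than 2 control mice with 20 cells and were not tested.

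Over all kept cells 4 of the 9 genes changed, and 2 without either control, where 26.0% of all 19787 genes did. Slc11a1 was 13.1 and 31.9 CPM in the controls, 219, 175 and 204 CPM in HFD+F+CCl4 mice and 182, 223 and 171 CPM in WD+F+CCl4 mice, 10.2-fold higher (adjusted p = 0.000806, edgeR). Ftl1 was 860 and 797 CPM against 3322 to 5304 CPM, 5.76-fold higher (adjusted p = 0.00203, edgeR). Fth1 was 1695 and 1740 CPM against 4381 to 8071 CPM, 3.64-fold higher (adjusted p = 0.00872, edgeR). Tfrc was 34.9 and 44.1 CPM against 16.5 to 25.6 CPM, a log2 difference of -0.76 ± 0.22 (adjusted p = 0.0386, edgeR), a call lost in 12 of 20 other settings. No group ranges overlapped, and these sums join the number of cells of each class with the level within them.

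The 2 diet models were compared to ask whether the high-fat and the western diet led to different levels. No member changed in any of 18 classes: 0 of 146 pairs by edgeR's quasi-likelihood test and 0 by DESeq2, against a background of 0.0188% of 175101 pairs, and 0.0% of all genes over all cells. At an unadjusted p below 0.05 there were 33 pairs (22.6%, against 5.41% over all genes), 5 higher and 28 lower in WD+F+CCl4 mice. Of these 33 pairs, 15 belonged to Trf, whose difference was below 0 in 17 of 18 classes with a median of -1.22. Hamp was below 0 in all 13 classes tested, with a median of -0.83. At an adjusted p below 0.05, the 0 became 21 pairs, 20 of them lower, with a filter of at least 1 count. It became 7 without WD+F+CCl4 replicate 3. The share over all genes in those 2 settings is not given, so the 21 and the 7 stand without a background.

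The difference of Trf was largest against its error in B-like cells, at 297, 239 and 30.6 CPM in HFD+F+CCl4 mice and 37.6, 24.8 and 99.8 CPM in WD+F+CCl4 mice (-1.996 ± 0.45, adjusted p = 0.109, edgeR). The summed hepatocyte markers of the same B-like cells were 761, 832 and 107 CPM and 46.5, 27.4 and 129 CPM, so HFD+F+CCl4 replicates 1 and 2 were high in both. Their part in the difference of Trf was not tested. For the ferritin chains the median differences were -0.15 (Fth1) and -0.06 (Ftl1), and for Slc11a1 0.15.

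A further 45 genes of iron and haem handling were counted in the same fits. In NASH mice 45 of 370 gene and class pairs were higher and 10 lower, against 2.76% higher and 2.71% lower over all genes. Genes of haem handling gave 17 higher and 4 lower of 100 pairs, led by Hmox1 (haem oxygenase, which frees iron from haem), higher in 7 of 11 classes, and Hp (haptoglobin, which binds free haemoglobin), higher in 6 of 13. Hpx (hemopexin, the plasma haem carrier) was lower in 4 of 11. Uptake genes gave 8 higher of 32 pairs, of which 7 were Lrp1 (a receptor for haem bound to hemopexin).

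Transcription factors of the ferroportin and haem programme gave 11 higher and 1 lower of 39 pairs, from Nr1h3 (LXR alpha) in 7 of 11 classes and Nfe2l2 (NRF2) in 4 of 13. Hepcidin control gave 6 higher and 2 lower of 59 pairs, from Hfe in 5 of 12, Smad7 in 1 and Bmp2, the endothelial inducer of hepcidin, lower in 2 of 10. Iron sensing and ferritin turnover gave 1 higher of 73 (Ncoa4, the receptor that takes ferritin to the lysosome, in macrophage-like cells). Mitochondrial iron gave 3 lower of 54, siderophore and milk iron binders 2 higher of 12 (Lcn2) and the oxidase Heph none of 1. The macrophage and hepatocyte markers above moved in the same classes, and their part in these counts was not tested. Between the diet models 0 of 561 pairs changed, by edgeR's quasi-likelihood test.

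Across the 21 named classes, the genes whose mean level was most like that of a member were found among 8008 genes reaching 50 CPM in a class, by Pearson's r of log2(CPM + 1), as a description of classes that share mice and free RNA. Slc40a1 was most like Il18bp (r = 0.90), Cd5l (0.85) and Vsig4 (0.84), the last 2 being Kupffer markers. Fth1 was most like Litaf (0.88), Gabarap and Bri3, and Ftl1 most like Gdf3 (0.94), Gm5150 and Creg1. Slc11a1 was most like Fcgr4 (0.97), Pla2g7 and Lpcat2, and Tfrc most like Arl6ip4 (0.72), Eldr and Spns3. Cp was most like Clu (0.94), Shroom3 and Col18a1, Hamp most like Rbp4 (0.97), Aldh1a7 and Ttc36, and Trf most like Apoc1 (0.94) and Aldh1l1. Slc11a2 did not reach 50 CPM in any class and was left out. Among the members themselves the highest values were Ftl1 with Slc11a1 (0.89), Cp with Trf (0.80), Hamp with Trf (0.79) and Fth1 with Ftl1 (0.79), and Tfrc was below 0 with each of the others.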

How the data were processed

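Single liver cells of 8 mice were captured with a 10x 3′ kit, and the authors deposited raw UMI counts for 55450 genes. Cell Ranger on GRCm38, after bcl2fastq 2.20, produced them per the labels. The header names an earlier Cell Ranger than the methods. The deposited 5552 to 12812 barcodes per library were not yet cut by the gene and mitochondrial limits, and no source used here gives a removal of free RNA or doublets before deposit. The counts carry 1 tag per molecule, and a ratio of 2 genes is set beside the same ratio in other classes or groups.

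Kept cells were scaled to 10000 UMIs, and 2000 variable genes, 30 components, 20 neighbours and Leiden clustering (leidenalg 0.10.2, resolution 0.5) gave clusters. A name needed at least 3 markers of a type in a share of 0.1 of the cells, and clusters with a second lineage stayed unnamed, a rule set after the clusters were seen. Scrublet in scanpy 1.11.5 set its own limit at 0 to 16.7% of a library, so doublets were kept and the cells of highest score were left out as an alternative.

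Counts per mouse and class were fitted in edgeR 4.0.16 (TMM scaling, filterByExpr with a minimum count of 10, all 3 groups in 1 quasi-likelihood fit), tested on simulated data first, with DESeq2 1.42.0 as an alternative. The shared spread of 3 groups stands in for the small control group. The SE of a log2 difference comes from this fit over mice, so it holds the spread between mice as well as counting error. The 95% interval uses a normal quantile of that SE, which is narrow for so few mice. Same-numbered mice did not deviate together (correlations of -0.65 to 0.09), so numbers do not pair the mice. The study named one-way ANOVA between groups, and UMI counts needed a count model instead.

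The 9 members and the lists were chosen with earlier results of these data known. Per-mouse values are given for each member in its highest classes and wherever it changed. One marker used in naming and one gene of the likeness search are not reported here. A class comparison needed 2 mice on each side.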

Additional observations from a re-analysis of the deposited data

Results flagged for a closer look

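Rows of near-identical genes held UMIs that the comparisons do not use. The pseudogene row Ftl1-ps1 held 23426 UMIs over all kept cells, 211 to 6772 per mouse, the pseudogene row Fth-ps2 held 198, and Hamp2, the second hepcidin gene, held 613, 10 to 233 per mouse. Levels of Ftl1, Fth1 and Hamp are uncertain by the reads shared with these copies, whose number was not tested. Groups of 2 and 3 mice were too small to test single mice as outliers.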

How the results depend on the processing

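The 26 changed pairs of NASH against control became 45 with a filter of at least 1 count, 12 with the replicate block, 11 with cells of more than 1000 genes, 17 without likely doublets and 14 with HFD+F+CCl4 mice alone as NASH, and ranged from 7 to 28 with 1 mouse left out, lowest without control replicate 1 (7) and control replicate 2 (14). The cause of each was not tested, other than the 45 pairs tested, in place of 99, at more than 1000 genes. Apart from HFD+F+CCl4 mice alone, set beside all genes above, the share over all genes is not given for these settings. Nor is it given for those that follow, so these counts stand without a background. The 0 pairs of WD+F+CCl4 against HFD+F+CCl4 became 21 (20 lower) with at least 1 count, 3 with the replicate block, 1 at a higher resolution and 0 to 7 with 1 mouse left out (7 without WD+F+CCl4 replicate 3, 4 without HFD+F+CCl4 replicate 3). The 4 genes changed over all cells became 2 to 4 with 1 mouse left out, 2 without either control. The class of the highest level was the same for 7 to 9 of 9 genes, exceptions being Ftl1 (Kupffer-like) and Fth1 (granulocyte-like or hepatic stellate-like). The log2 Fth1 to Ftl1 ratio difference of -0.68 ran from -0.85 to -0.61 with 1 mouse left out (exact permutation p = 0.0476 without HFD+F+CCl4 replicate 3). Other settings stayed within 1.5 times of each count, and none of the 30 single changes reversed. Ftl1 and Slc11a1 in B-like cells and over all cells passed in all 20 settings. Of the 30 single changes, 8 passed without control replicate 1 and 15 with the block. The numbers used for the block are not known to pair the mice. With 2 controls, 1 of them shallow, the part of depth in the missing calls of low genes such as Slc11a2 and Tfrc was not tested.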

Other observations

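The 2 clusters left unnamed that came almost wholly from 1 control mouse each also held hepatocyte RNA. The 6 hepatocyte markers summed to 6126 to 9658 CPM in cluster 13 and 11738 to 16881 CPM in cluster 14, against 38823 CPM in the hepatocyte-like cells of control replicate 1.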
